A study of Homo sapiens with 6 samples.

Results

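The 9 genes described here encode enzymes that make, use or connect glutamine, glutamate, arginine and polyamines: GLUL, GLUD1, GLUD2, GOT1, GOT2, GPT2, ASNS, ARG2 and ODC1. They were taken by gene symbol from the authors' own comparison table, which lists 15243 genes and holds all 9. It rests on Ribo-seq, the sequencing of mRNA fragments protected by ribosomes, in NCI-H1299, a p53-deficient line from a human lung carcinoma. The study has 6 samples, 3 of cells with a short hairpin RNA against ALDH18A1 (shALDH18A1) and 3 control samples (shControl), which the design text calls puro. The medium of both groups was RPMI1640 with fetal bovine serum. The labels name no hairpin sequence, clone or time after knockdown, and do not say whether the samples came from separate cultures, so the errors may cover technical spread only.

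Glutamate is the shared intermediate of these pathways. ALDH18A1 encodes P5CS, which turns glutamate into pyrroline-5-carboxylate on the way to proline, and the same intermediate can be exchanged with ornithine. Glutamine synthetase makes glutamine from glutamate, glutamate dehydrogenase and the transaminases connect glutamate with the tricarboxylic acid cycle, and arginase supplies the ornithine from which ornithine decarboxylase starts polyamine synthesis.

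Each gene has 1 mean normalized count, 1 log fold change and the standard error (SE) of that change, besides p-values. The table has no values per sample, so no replicate values can be shown and the depth of the libraries is unknown. The sources used here do not state which group is on top of the fold change, nor how it was formed. The name of the table refers to differential translation efficiency, footprints relative to RNA, but no RNA libraries are described among the 6 samples, so a ratio of footprints alone cannot be told apart from it. "Higher" and "lower" therefore give the sign in the authors' deposited table, and whether shALDH18A1 or shControl had more is not known from it. The layout of the columns points to log2 as the scale, a gene counts as called where its adjusted p lies under 0.05, and each ± is the deposited SE. ALDH18A1 itself, the target of the hairpin, had −0.19 ± 0.12 log2 units in the authors' deposited table and was not called (adjusted p = 0.173). KRT8 and KRT18, keratins of epithelial cells, had mean normalized counts of 6396 and 6869 in the authors' deposited table, and VIM, a mesenchymal filament gene, had 22046. PTPRC and CD3E, which mark blood cells, are not among its genes, and the haemoglobin gene HBB had a mean of 0.896 there.

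Of the 9 genes, 8 were called in the authors' deposited table, 5 higher and 3 lower. Calls were common in this comparison: 58.4% of all genes were called, 28.9% higher and 29.4% lower. Among genes of at least median abundance, which include 8 of the 9, 71.8% were called, and 7 of those 8 were. The called transaminase genes (GOT1, GOT2 and GPT2), the asparagine synthetase gene ASNS and the arginase gene ARG2 were higher in the authors' deposited table. Both glutamate dehydrogenase genes and ODC1 were lower. The dehydrogenase genes may share reads, so their calls may not be separate. GLUL was not called. With a fold change of at least 1 on the log2 scale required as well, 3 of the 9 remained higher (ARG2, GPT2 and ASNS) and 0 lower, beside 14.7% and 8.97% of all genes and 23.7% in both directions together. The median over the 9 was 0.42 on the log2 scale and that over all genes 0.02.

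**Figure D1:**
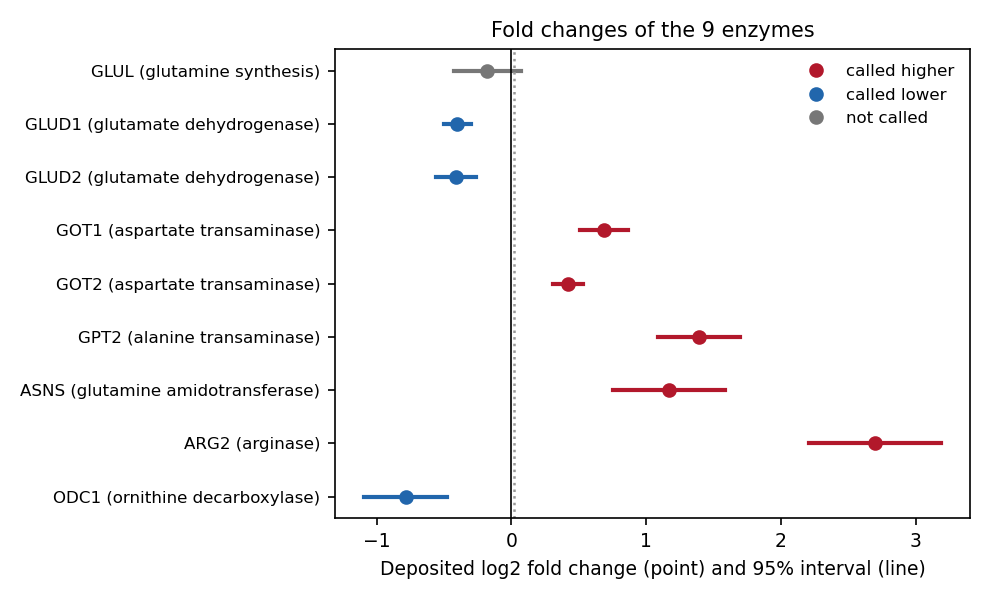
Deposited log2 fold change (x axis, no unit) of the 9 enzyme genes, ordered by role, as points with lines for the 95% interval; the dotted line marks the median of all genes at 0.02. The 3 transaminase genes, ASNS and ARG2 lie right of 0, with ARG2 farthest at 2.70, the glutamate dehydrogenase genes and ODC1 lie left of 0, and the interval of GLUL spans 0.

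GLUL encodes glutamine synthetase, which joins ammonia to glutamate. It lies on chromosome 1 from 182378098 to 182391790 (GRCh38) and had a mean normalized count of 386 in the authors' deposited table. In the authors' deposited table it differed by −0.18 ± 0.13 log2 units, with a 95% interval from −0.42 to 0.07 (adjusted p = 0.226). The interval spans 0, so no difference was detectable, and it allows a negative value as large as its lower bound. RefSeq names 6 GLUL pseudogenes elsewhere in the genome, and how the counting treated reads that map to several places is not given.

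GLUD1 and GLUD2 encode the 2 human glutamate dehydrogenases, mitochondrial enzymes that deaminate glutamate to 2-oxoglutarate. GLUD1 (chromosome 10, 87050202 to 87094843) has introns, and GLUD2 (chromosome X, 121047610 to 121050094) is an intronless copy of it. Their coding sequences were not compared as a whole, so how far their reads can be told apart is not shown. The stretches just before the annotated starts of both genes are printed to show how alike the copies are there. They lie outside the annotated spans of GLUD1 and GLUD2 themselves. They come from RefSeq on GRCh38.p14, 100 bases each, written 5′ to 3′ in the direction of the gene, with the longest stretch common to both in capitals:
GLUD1 (chr10:87094844-87094943, minus strand): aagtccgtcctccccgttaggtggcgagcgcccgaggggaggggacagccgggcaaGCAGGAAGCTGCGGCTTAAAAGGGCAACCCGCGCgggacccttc
GLUD2 (chrX:121047510-121047609, plus strand): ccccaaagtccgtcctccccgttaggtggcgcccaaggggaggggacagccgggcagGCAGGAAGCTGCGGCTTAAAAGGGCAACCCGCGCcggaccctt
The common stretch is 34 bases long. Laid side by side at that offset without gaps, 79 of these 100 bases were identical, as were 45 of the 49 compared bases after the start. Farther upstream, 36 of the 150 bases were identical at that offset. The opening bases of the GLUD1 stretch recur in GLUD2 at another offset, so the count of 79 understates the match. The count farther upstream is out of that register and does not measure how far the copies differ there.

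GLUD1 was lower, at −0.40 ± 0.05 log2 units in the authors' deposited table (mean normalized count 1745, adjusted p = 3.50e-14). GLUD2 was lower, at −0.41 ± 0.08 in the authors' deposited table (mean normalized count 812, adjusted p = 1.98e-07). Both correspond to a difference of 1.3-fold. GLUD1 minus GLUD2 came to 0.01 on the log2 scale, with a 95% interval from −0.17 to 0.19 if the estimates are taken as independent and from −0.24 to 0.26 with the widest error that the SEs allow. With reads that may be shared between these copies the estimates may not be separate measurements, and the part of read sharing in either value was not tested. GLUL minus GLUD1 was 0.23 on the log2 scale, with a 95% interval from −0.04 to 0.49 for independent estimates. With the widest error it ran from −0.12 to 0.57, so no difference between GLUL and GLUD1 was detectable. RefSeq also names 6 GLUD1 pseudogenes. The annotated span of GLUD1 overlaps that of SHLD2 by 371 bases, and SHLD2 was lower, at −1.66 ± 0.15 in the authors' deposited table.

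GOT1 and GOT2 encode the cytosolic and mitochondrial aspartate transaminases, which pass the amino group between glutamate and aspartate and form the enzyme pair of the malate-aspartate shuttle. GOT1 (chromosome 10, 99396870 to 99430624) was higher by 0.69 ± 0.09 log2 units in the authors' deposited table, a difference of 1.61-fold (mean normalized count 883, adjusted p = 1.67e-13). GOT2 (chromosome 16, 58707131 to 58734316) was higher by 0.42 ± 0.06 in the authors' deposited table, a difference of 1.34-fold (mean normalized count 1127, adjusted p = 2.93e-13). The genes of the cytosolic and the mitochondrial enzyme thus had the same sign. GOT1 minus GOT2 was 0.27 on the log2 scale, with a 95% interval from 0.06 to 0.48 for independent estimates. The covariance of estimates made on the same libraries is unknown. With the widest error that the SEs allow, the interval ran from −0.02 to 0.56, so the gap between the isoenzymes is not settled. RefSeq names 7 GOT2 pseudogenes and 0 for GOT1.

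GPT2 encodes the mitochondrial alanine transaminase, which makes alanine and 2-oxoglutarate from pyruvate and glutamate. It lies on chromosome 16 from 46884362 to 46931289. GPT2 was higher by 1.39 ± 0.16 log2 units in the authors' deposited table, a difference of 2.63-fold, with a 95% interval from 1.09 to 1.70 (adjusted p = 4.50e-18). It had the lowest mean normalized count of the 9, at 77.9 in the authors' deposited table. GPT2 minus GOT2, a comparison of 2 mitochondrial transaminases, was 0.97 on the log2 scale (95% interval 0.65 to 1.30 for independent estimates and 0.56 to 1.39 with the widest error). The cytosolic alanine transaminase gene GPT was barely measured, with a mean of 1.01 and −0.09 ± 1.12 log2 units in the authors' deposited table.

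ASNS encodes asparagine synthetase, which moves the amide nitrogen of glutamine onto aspartate and is a textbook target of the amino acid response through the transcription factor ATF4. It lies on chromosome 7 from 97851677 to 97928441. ASNS was higher by 1.17 ± 0.21 log2 units in the authors' deposited table, a difference of 2.25-fold, with a 95% interval from 0.76 to 1.59 (mean normalized count 515, adjusted p = 1.25e-07). The annotated ASNS span shares 76325 bases with the readthrough RNA gene CZ1P-ASNS on the same strand, and reads in their common exons cannot be assigned to one of them. RefSeq names 5 ASNS pseudogenes.

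The regions upstream of ASNS and GOT1 are shown because these 2 genes, both called higher, hold the core letters TGATGNAAN (N is any base) of the response element that binds C/EBP and ATF factors. The windows are the 250 bases before an annotated start in RefSeq on GRCh38.p14, written 5′ to 3′ in the direction of the gene, with the match in capitals:
ASNS (chr7:97872409-97872658, minus strand): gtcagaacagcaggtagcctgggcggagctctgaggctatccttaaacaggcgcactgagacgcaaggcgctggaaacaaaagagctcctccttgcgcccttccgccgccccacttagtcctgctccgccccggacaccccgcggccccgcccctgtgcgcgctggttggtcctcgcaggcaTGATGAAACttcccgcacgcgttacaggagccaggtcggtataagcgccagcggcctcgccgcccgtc
GOT1 (chr10:99430625-99430874, minus strand): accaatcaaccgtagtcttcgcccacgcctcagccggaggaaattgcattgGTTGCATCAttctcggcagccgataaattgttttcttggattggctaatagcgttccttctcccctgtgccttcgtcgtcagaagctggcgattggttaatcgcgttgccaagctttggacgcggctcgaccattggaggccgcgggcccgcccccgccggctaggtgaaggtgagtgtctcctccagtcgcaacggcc
The ASNS match starts 68 bases before 1 of its 2 annotated starts. The GOT1 match, which reads TGATGCAAC on the other strand, begins 199 bases before the GOT1 start. Windows were at hand for 8 of the 9 genes (11 windows, not for GPT2), and these were the only matches among them on either strand. Of all 35116 windows of this length, 3.13% hold the motif. The palindromic cyclic AMP element TGACGTCA occurred 172 and 64 bases before the ARG2 start (1.65% of all windows), and the E-box CACGTG, the kind of site that MYC binds, 29 bases before 1 of the 2 annotated ODC1 starts (6.34%). None of these matches overlapped another. The motifs were chosen with the fold changes known, and the table measures nothing at these sequences.

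ARG2 encodes the mitochondrial arginase, which splits arginine into ornithine and urea. It had the largest change of the 9, higher by 2.70 ± 0.25 log2 units in the authors' deposited table, with a 95% interval from 2.21 to 3.19 (mean normalized count 241, adjusted p = 3.34e-26). That is a 6.50-fold difference read as log2, and 14.9-fold were the unstated base the natural one. Of all genes, 1.99% had a higher fold change. ARG2 (chromosome 14, 67619920 to 67651708) lies wholly within the annotated span of GPHN on the same strand and shares 4624 bases with VTI1B on the opposite strand. GPHN had the other sign, at −0.64 ± 0.09 in the authors' deposited table, and VTI1B, at 0.02 ± 0.29, was not called. Read sharing with them was not tested.

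ODC1 encodes ornithine decarboxylase, the first enzyme of polyamine synthesis, whose protein is short-lived and is destroyed through binding to antizyme. It lies on chromosome 2 from 10439968 to 10448327. ODC1 was lower, at −0.78 ± 0.16 log2 units in the authors' deposited table, a difference of 1.72-fold, with a 95% interval from −1.09 to −0.48 (mean normalized count 2112, adjusted p = 2.35e-06). ARG2, which makes ornithine, and ODC1, which uses it, thus had opposite signs. OAT, which exchanges ornithine with pyrroline-5-carboxylate, was lower, at −0.43 ± 0.07 in the authors' deposited table (chosen after seeing its value).

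The precision differed among the 9 genes. Genes of the table were split into 10 equal bins of abundance, and each deposited SE was set against its bin. The SE of GOT2 was 0.506 times and that of GLUD1 0.511 times the median of its bin. The SEs of ARG2, ASNS and ODC1 were 1.90, 1.76 and 1.57 times their bin's median, and 95.9%, 95.3% and 88.7% of genes in the bin had a smaller one. GPT2, with the second largest change of the 9, had a tight estimate at 0.708 times its bin's median, and GLUL, with the smallest, lay near it at 1.05 times. Values per sample, which would show whether 1 library carries that spread, were not analysed here.

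**Figure D2:**
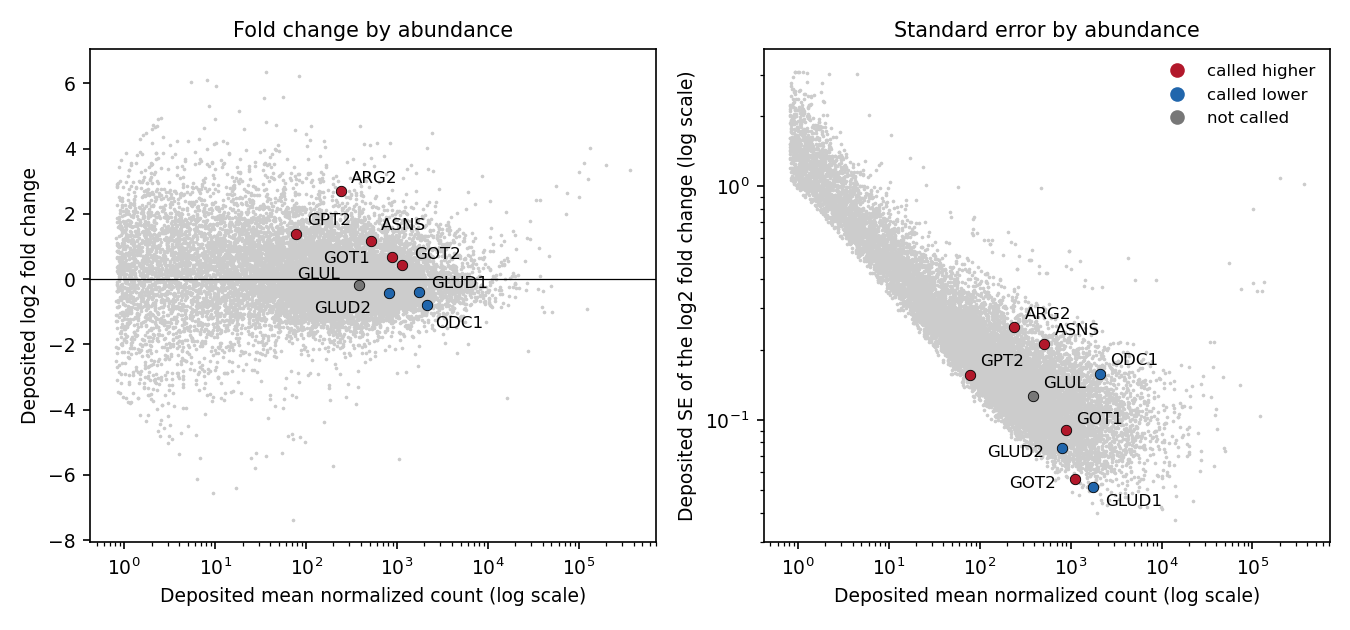
Deposited log2 fold change (left, y axis) and its SE on a log scale (right, y axis) against the mean normalized count on a log scale, for all 15243 genes in grey and the 9 enzyme genes in colour by call. ARG2, ASNS and ODC1 lie near the upper edge of the SEs at their abundance, whereas GLUD1, GOT2 and GPT2 lie near the lower edge.

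The neighbouring enzymes were read in 8 lists set by role, which hold 67 genes apart from the 9, and 59 of these were in the table. Of these, 15 were called higher, 18 lower and 26 were not called in the authors' deposited table, with a median of −0.09 log2 units. These shares lie near those of all genes.

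Glutamine breakdown and glutamine transaminases counted 2 higher, 3 lower and 2 not called of 7, beside 28.9% higher and 29.4% lower over all genes. The omega-amidase gene NIT2 was lower, at −0.79 ± 0.12 in the authors' deposited table (adjusted p = 8.51e-10). The glutamine transaminase gene KYAT3 was higher by 0.79 ± 0.11 in the authors' deposited table. The list's median of 0.79 goes against the larger number of lower calls, since it counts 2 genes with wide errors, GLS2 (1.53 ± 0.73, adjusted p = 0.0624) and ASPG (2.68 ± 1.48, adjusted p = 0.108), which were not called in the authors' deposited table and were named after their values were seen.

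Amidotransferases other than ASNS, which spend the amide nitrogen of glutamine, were listed with their relatives (median −0.19). Of these 14, 3 were higher, 4 lower and 7 not called, beside 28.9% higher and 29.4% lower over all genes. One of the 4 is CPS1, a relative that takes free ammonia, and without it 3 of 13 were lower. At an adjusted p under 0.01, 2 were lower. CAD, which starts pyrimidine synthesis, was higher by 0.74 ± 0.08 in the authors' deposited table. QRSL1, a subunit of the mitochondrial glutaminyl-tRNA amidotransferase, was higher by 0.69 ± 0.07 there. The genes of its other subunits, GATB (−0.16 ± 0.14) and GATC (−0.26 ± 0.15), named after their values were seen, were not called in the authors' deposited table. ASNSD1, whose product resembles asparagine synthetase, was lower, at −0.92 ± 0.09 in the authors' deposited table, opposite in sign to ASNS. The list thus had no common sign.

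Other glutamate-linked enzymes counted 5 higher, 2 lower and 3 not called of the 10 measured (median 0.23), beside 28.9% higher and 29.4% lower over all genes. With at least 1 on the log2 scale, 2 were higher and 0 lower, beside 14.7% higher and 8.97% lower over all genes. PSAT1, the phosphoserine transaminase of serine synthesis, was higher by 1.56 ± 0.09 in the authors' deposited table (adjusted p = 2.07e-64). ALDH4A1, which oxidises pyrroline-5-carboxylate back to glutamate, was higher by 0.99 ± 0.15 in the authors' deposited table. GCLC, the catalytic subunit that joins glutamate and cysteine in glutathione synthesis, was lower, at −0.71 ± 0.09 there. Among the mitochondrial and cytosolic partners of GOT1 and GOT2 in the malate-aspartate shuttle, the aspartate-glutamate carrier gene SLC25A13 was lower, at −1.59 ± 0.10 in the authors' deposited table (adjusted p = 1.61e-54). The 2-oxoglutarate carrier gene SLC25A11 was higher by 0.47 ± 0.20 in the authors' deposited table (adjusted p = 0.0336), and lost its call at a threshold of 0.01. SLC25A12 (0.19 ± 0.11), MDH1 (−0.08 ± 0.07) and MDH2 (0.03 ± 0.10) were not called in the authors' deposited table, and the median of these 5 was 0.03. The shuttle thus held transaminases called higher and carriers called in both directions, with its malate dehydrogenases near 0.

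Arginine and urea cycle genes were thinly measured, with 7 of 12 in the table (median −0.15). Of these 7, 1 was higher, 2 lower and 4 not called, beside 28.9% higher and 29.4% lower over all genes. The 3 called ones, NAGS (1.42 ± 0.46), CPS1 (−1.12 ± 0.48) and NOS3 (−1.05 ± 0.46), had mean normalized counts of only 8.29, 15.3 and 13.3 in the authors' deposited table. At an adjusted p under 0.01 the calls of CPS1 and NOS3 were lost, which leaves 0 lower. ARG1, the liver arginase, and OTC are not among the table's genes, so ARG2 is the only arginase gene measured.

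In polyamine metabolism downstream of ODC1, 4 of 8 genes were lower, 0 higher and 4 not called (median −0.37), beside 29.4% lower and 28.9% higher over all genes. With at least 1 on the log2 scale, 2 were lower and 0 higher, beside 8.97% lower and 14.7% higher over all genes. Spermine synthase SMS was lower, at −1.03 ± 0.07 in the authors' deposited table (adjusted p = 3.18e-50). The synthesis genes AMD1 (0.02 ± 0.08) and SRM (−0.14 ± 0.19) were not called in the authors' deposited table. MTAP was lower there, at −0.47 ± 0.12. AMD1, SRM and MTAP were named after their values were seen. Of the breakdown enzymes, the spermidine/spermine acetyltransferase gene SAT1 was lower, at −1.31 ± 0.18, and so was the spermine oxidase gene SMOX, at −0.97 ± 0.16 in the authors' deposited table. The other two breakdown genes, SAT2 (0.31 ± 0.17) and PAOX (−0.26 ± 0.30), named after their values were seen, were not called in the authors' deposited table. Of the antizyme system, which sets the stability of the ODC1 protein, OAZ1 was higher by 0.38 ± 0.12 (adjusted p = 0.00279) and AZIN2 by 0.80 ± 0.21 in the authors' deposited table. The other three, OAZ2 (0.01 ± 0.14), OAZ3 (−0.28 ± 0.21) and AZIN1 (−0.07 ± 0.08), were not called in the authors' deposited table, and the median of the 5 was 0.01. Antizyme mRNAs are decoded with a frameshift that polyamines favour, and gene-level values do not separate footprints before and after the shift. Along the hypusine route, which uses spermidine to modify the translation factor EIF5A, DHPS was higher by 0.34 ± 0.12 in the authors' deposited table, a call that was lost at an adjusted p under 0.01. DOHH (−1.11 ± 0.12), EIF5A (−0.24 ± 0.04) and EIF5A2 (−0.59 ± 0.19) were lower in the authors' deposited table, where the median of the 4 was −0.42.

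**Figure D3:**
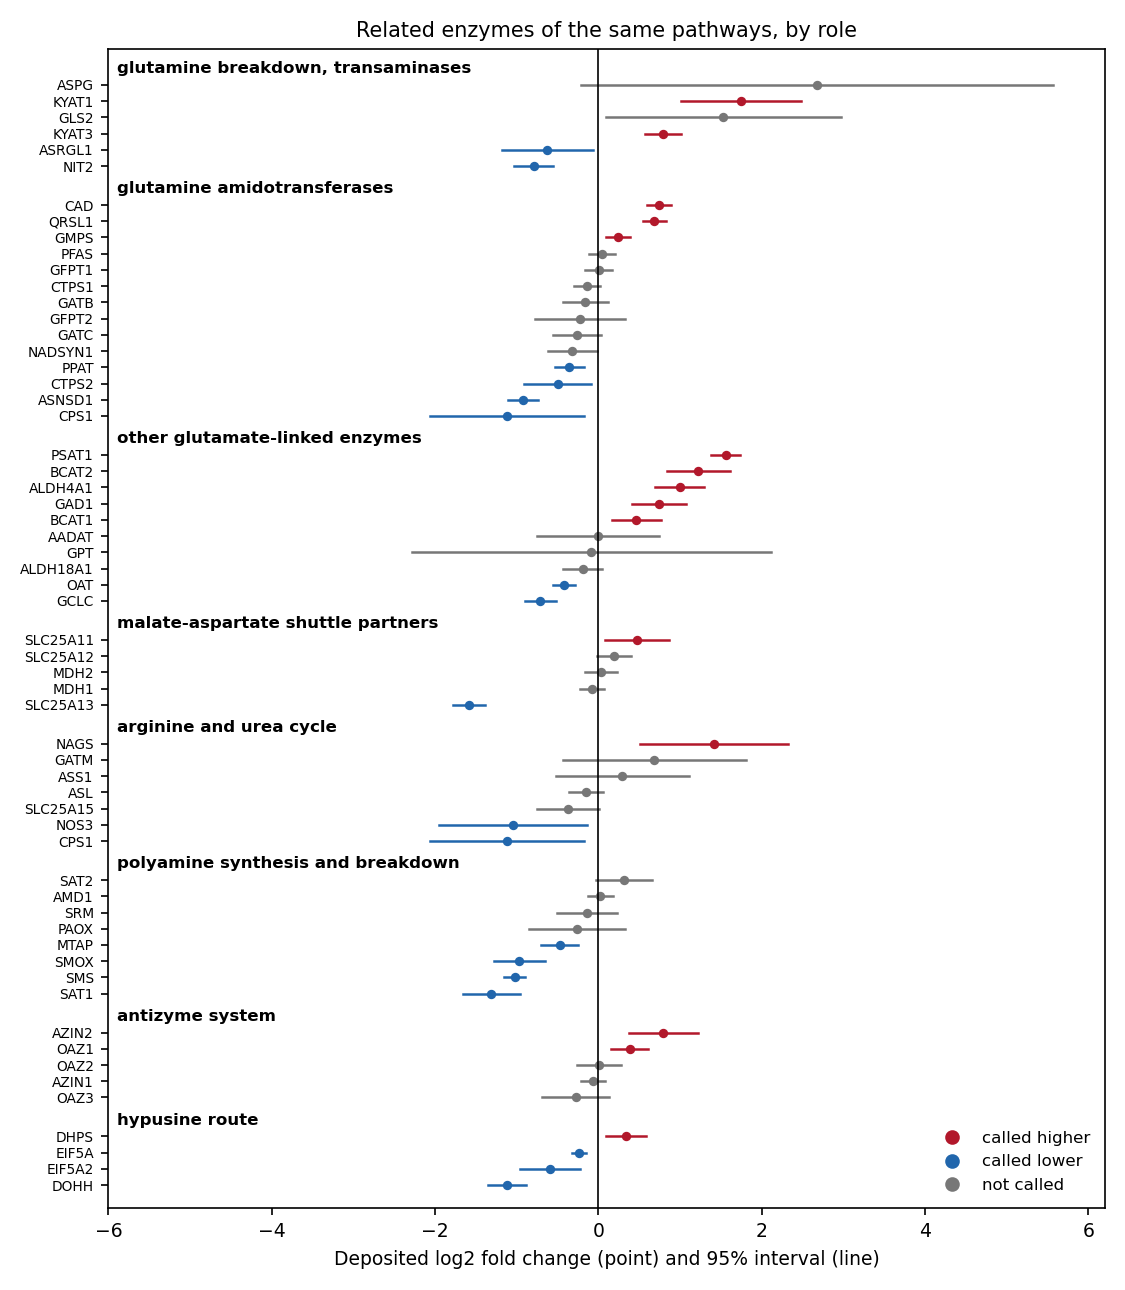
Deposited log2 fold change (x axis, points) with 95% intervals (lines) for the measured related genes except 1, grouped in 8 role lists and coloured by call; CPS1 stands in 2 lists. In polyamine synthesis and breakdown all 4 called genes lie left of 0, and SLC25A13 lies at −1.59 while the malate dehydrogenases lie near 0.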

How the data were processed

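Only a finished comparison table was used; it has 0 columns of values per sample. The submitters' processing notes name hg38, featureCounts, STAR 2.7.10a and fastp 0.23.2; the sources used here give no roles, settings, annotation or strand use. The deposited mean is a signal, taken from its column name, baseMean, to be an average of counts after scaling between libraries. The deposited fold change and SE are taken as log2, and the deposited statistic is a score equal to their quotient. Each deposited p-value follows from that score by the normal distribution, two-sided, with Benjamini-Hochberg adjustment over the table. One symbol occurs on 2 rows, which leaves 15243 genes.

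Genes were called at a deposited adjusted p under 0.05. Intervals of 95% use the normal quantile. Differences between genes were taken for 4 pairs. Names, spans and windows come from RefSeq (GRCh38.p14). Lists were described by counts and medians, with no list test. Named were the 9 genes, ALDH18A1, for each list its 3 called genes of smallest p, and all measured members of lists with at most 5; others are said to be chosen on values or are named as neighbours or as absent. One gene that the rule names is not reported here, though counts and medians include it. Members and lists were chosen with earlier results of these data known. Alternatives were other thresholds, adjustments, fold minimums, median centring, abundant genes only and every row. The authors' own marks were added after seeing the data. Calling was tested on simulated data. The tools were Python 3.11.15, numpy 2.4.6 and scipy 1.17.1, with pandas 2.3.3 for tables and matplotlib 3.10.9 for figures. Without library depths, the deposited SE is the only measure of precision.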

Additional observations from a re-analysis of the deposited data

How the results depend on the processing

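The calls of the 9 genes did not change at an adjusted p under 0.01 or 0.10, nor with Bonferroni or Benjamini-Yekutieli adjustment. They also held with fold changes centred on the median of all genes. Taking every row of the table reuses the deposited adjusted p-values, so the same calls there are no separate check. Restricted to genes at or above the median abundance, which leaves GPT2 out, the calls of the other 8 also held. Fold minimums removed calls by their own construction. With at least 1.5-fold, 4 of the 9 genes stayed higher and 1 lower (ODC1). With at least 1, 3 of the 9 genes were higher and 0 lower, 4 related genes were higher and 6 lower, and 2244 genes of the whole table were higher and 1367 lower. The authors' own marks, which need an unadjusted p under 0.05 and a log2 fold change beyond 1, gave 3 higher and 0 lower among the 9, 5 and 6 among the related genes, and 2310 and 1408 over the table. With these, 62.1% of marked genes were higher, against 49.6% of those called by adjusted p. GOT1 minus GOT2, 0.27 on the log2 scale, was no longer past the threshold with the widest error, whose 95% interval ran from −0.02 to 0.56. No paired analysis was possible because the table holds no values per sample, and for the same reason no replicate could be left out. The direction between the groups, the log base and the use of RNA libraries in the fold change are not settled.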
